A study of Mus musculus with 72 samples.

Results

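The enzymes that write, copy and remove the methyl mark on DNA were followed through 72 bulk RNA-Seq libraries of mouse gonads and livers. The set was chosen by name and holds 10 genes of the 24107 symbols that all 7 count tables share: the methyltransferases Dnmt1, Dnmt3a and Dnmt3b, their cofactor Dnmt3l, the hydroxylases Tet1, Tet2 and Tet3, the maintenance factors Uhrf1 and Uhrf2, and the glycosylase Tdg. All 10 were listed in every table. Naturals came from matings of CF-1 females given no hormones with SJL/B6 sires bearing a GFP transgene on one allele, and gestation took place in the mother herself. IVF mice came from eggs of superovulated CF-1 females, fertilised in vitro with sperm of the same kind of male, cultured to the blastocyst and placed in pseudopregnant CF-1 recipients, so superovulation, culture, transfer and the fertilisation itself cannot be told apart. The first generation (F1) gave testis from fetuses late in gestation (E18.5, 4 naturals and 6 IVF). It also gave testis from males aged 12 weeks (5 and 5) and from males aged 39 weeks (4 and 6). Pups for these F1 adult groups were delivered by C-section, later in gestation for IVF than for naturals, and then fostered. Day of delivery and conception thus cannot be told apart in them. For the adults the methods describe freezing of seminiferous tubules, but for RNA they name a cross section of the testis. Natural or IVF males of 12 weeks were then mated with wild-type CF-1 females, and their F2 offspring gave, also at 12 weeks, testis (5 naturals and 7 IVF), male liver (5 and 5), female liver (5 and 6) and ovary (4 and 5). The labels number the libraries without naming animals, litters or sires, so the p-values below measure the spread between libraries. F2 libraries of a group may share a sire, and F2 tissues may come from the same animals. The spread between sires is therefore not measured.

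Dnmt1 copies existing methylation onto the new strand after replication, and Uhrf1 brings it to hemimethylated sites; Uhrf2 is a relative of Uhrf1. Dnmt3a and Dnmt3b set new marks, and Dnmt3l, which lacks catalytic activity of its own, stimulates them in germ cells. The TET enzymes oxidise methylcytosine, and Tdg excises the most oxidised forms, which base excision repair then replaces with unmodified cytosine. In the male germline the marks are erased early in development and set again in prospermatogonia before birth, which is the stage nearest to the E18.5 samples. The question behind the comparison of IVF with naturals was whether conception in vitro left molecular traces in the testis and in the next generation, DNA methylation being one of the traits the study followed.

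Levels are given as CPM, the reads of a gene scaled to a fixed total of counted reads per library, with TMM scaling within its own table. Library totals ran from 543745 to about 90441400 counts. At E18.5 the naturals held 2904730 to 4869140 counts and the IVF libraries 8500050 to 15745500, so depth and conception cannot be told apart there. The labelled tissues carried their markers: the summed level of 7 spermatid markers was at most 5.64 CPM at E18.5 and at least 10500.2 CPM in every adult testis library, 6 hepatocyte markers reached at least 70094 CPM in every liver, and 7 oocyte markers reached 195 to 345 CPM in ovary. A few libraries stood apart. E18.5 natural 1 held 435 CPM of hepatocyte markers against 0.624 to 16.3 CPM in the other 9 fetal libraries. F2 male liver naturals 1 and 5 held 75.6 and 111 CPM of spermatid markers against at most 15.4 CPM in the other male livers, and F2 male liver IVF 3 was the shallowest library of the series.

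The promoters of these genes were read from RefSeq (GRCm38.p6, the mm10 sequence the submitters name) as windows of 300 bases, 250 before and 50 after an annotated start. All 10 genes matched, with 17 windows between them. Tet2 is shown first because it was the one gene of the set that differed between IVF and naturals by the test used here. Tet2 was called in F2 female liver alone, where 49.0% of all genes were called, and not once the trend of each library with GC content was removed. Its window, chr3:133544341-133544640 on the minus strand, held 57 CpG dinucleotides, the step of sequence that carries most methylation in mammals, and 0.152% of the 32851 windows of all genes held as many, while the median window held 7. Dnmt3l is shown beside it because its reads came almost wholly from gonads. The first of its 3 windows, chr10:78042037-78042336 on the plus strand, held 6 CpG, and the other 2 held 4 and 3. Capitals mark the CpG.
Tet2: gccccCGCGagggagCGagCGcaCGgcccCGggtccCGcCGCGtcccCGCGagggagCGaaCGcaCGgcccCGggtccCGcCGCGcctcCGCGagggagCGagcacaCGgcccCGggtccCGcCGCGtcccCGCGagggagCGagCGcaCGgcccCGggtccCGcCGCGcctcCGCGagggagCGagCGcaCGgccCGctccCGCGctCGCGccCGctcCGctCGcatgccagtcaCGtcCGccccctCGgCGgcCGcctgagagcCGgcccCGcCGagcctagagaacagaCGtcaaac
Dnmt3l: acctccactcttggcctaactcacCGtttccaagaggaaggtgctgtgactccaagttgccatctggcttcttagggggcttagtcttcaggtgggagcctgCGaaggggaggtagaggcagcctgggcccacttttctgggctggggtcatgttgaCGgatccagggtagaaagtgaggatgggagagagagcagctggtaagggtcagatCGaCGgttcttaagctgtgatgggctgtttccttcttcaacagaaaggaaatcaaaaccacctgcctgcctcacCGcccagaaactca

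Dnmt1 and Uhrf1, the pair that copies methylation at replication, were both lower in liver than in testis. For Dnmt1 this difference was little beyond the median of all genes, as given with the F2 tissues below, so it does not set Dnmt1 apart. The letters TTTGGCGC, TTTGCCGC, TTTCGCGC and TTTCCCGC, which are forms of the E2F motif of replication genes, were searched on both strands. They were found in 2 of the 17 windows, as 2 matches, beginning at -219 and 33 with the annotated start counted as 0, in Dnmt1 window 3 (chr9:20952574-20952873, minus strand) and as 1 match, at -185, in Uhrf1 window 2 (chr17:56304063-56304362, plus strand), while 2.26% of all windows held 1 or more of them. Some of these letters can overlap each other, and a match is a description of the sequence only. Capitals mark the matches.
Dnmt1: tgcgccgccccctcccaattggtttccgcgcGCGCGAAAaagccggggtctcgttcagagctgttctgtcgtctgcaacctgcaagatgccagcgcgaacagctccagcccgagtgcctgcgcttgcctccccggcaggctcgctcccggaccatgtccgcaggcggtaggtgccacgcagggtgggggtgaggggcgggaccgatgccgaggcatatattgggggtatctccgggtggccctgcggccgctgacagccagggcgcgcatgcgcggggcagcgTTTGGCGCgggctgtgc
Uhrf1: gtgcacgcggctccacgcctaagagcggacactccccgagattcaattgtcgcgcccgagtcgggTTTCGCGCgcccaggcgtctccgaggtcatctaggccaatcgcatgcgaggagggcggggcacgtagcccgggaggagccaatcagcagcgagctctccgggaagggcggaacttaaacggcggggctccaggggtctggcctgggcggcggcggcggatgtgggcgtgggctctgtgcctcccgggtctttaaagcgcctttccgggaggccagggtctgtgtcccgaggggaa

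The remaining windows held CpG numbers of 46, 47 and 18 for Dnmt3a, 30 for Dnmt3b, 28 for Uhrf2, 26 for Tdg, 22 for Tet3, 17 for Tet1, 12 for Uhrf1 window 1, and 2 and 12 for Dnmt1 windows 1 and 2.

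The order of the genes by level changed from the fetal to the adult testis. To compare genes, levels were divided by transcript length and are given here as CPM per kilobase, mean and SD over the naturals. At E18.5 the first 3 were Dnmt3a at 57.3 ± 2.07, Dnmt1 at 46.6 ± 2.32 and Uhrf1 at 44.2 ± 2.80 (n = 4), and Dnmt1 and Uhrf1 differed by less than their spread. Uhrf2 at 24.1 ± 1.10, Dnmt3l at 21.4 ± 5.91 and Tet3 at 19.5 ± 1.95 followed, Dnmt3l overlapping both neighbours. Tet2 at 8.78 ± 1.99, Dnmt3b at 5.77 ± 0.983 and Tet1 at 4.41 ± 0.707 came next, and Tdg was last at 0.0764 ± 0.0932. At 12 weeks Uhrf1 led at 32.8 ± 1.5997, ahead of Dnmt1 at 11.4 ± 0.686, Dnmt3l at 5.70 ± 1.40 and Uhrf2 at 3.79 ± 0.394 (n = 5). Dnmt3a, first in the fetus, stood at 2.15 ± 0.167 and could not be separated from Dnmt3b at 2.13 ± 0.335. The 3 TET genes then lay at 0.826 ± 0.124 for Tet3, 0.486 ± 0.0477 for Tet2 and 0.0994 ± 0.0301 for Tet1. The F2 testis at the same age kept the same first 6 places, from Uhrf1 at 30.8 ± 0.5847 to Dnmt3b at 2.11 ± 0.246 (n = 5).

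**Figure D1:**
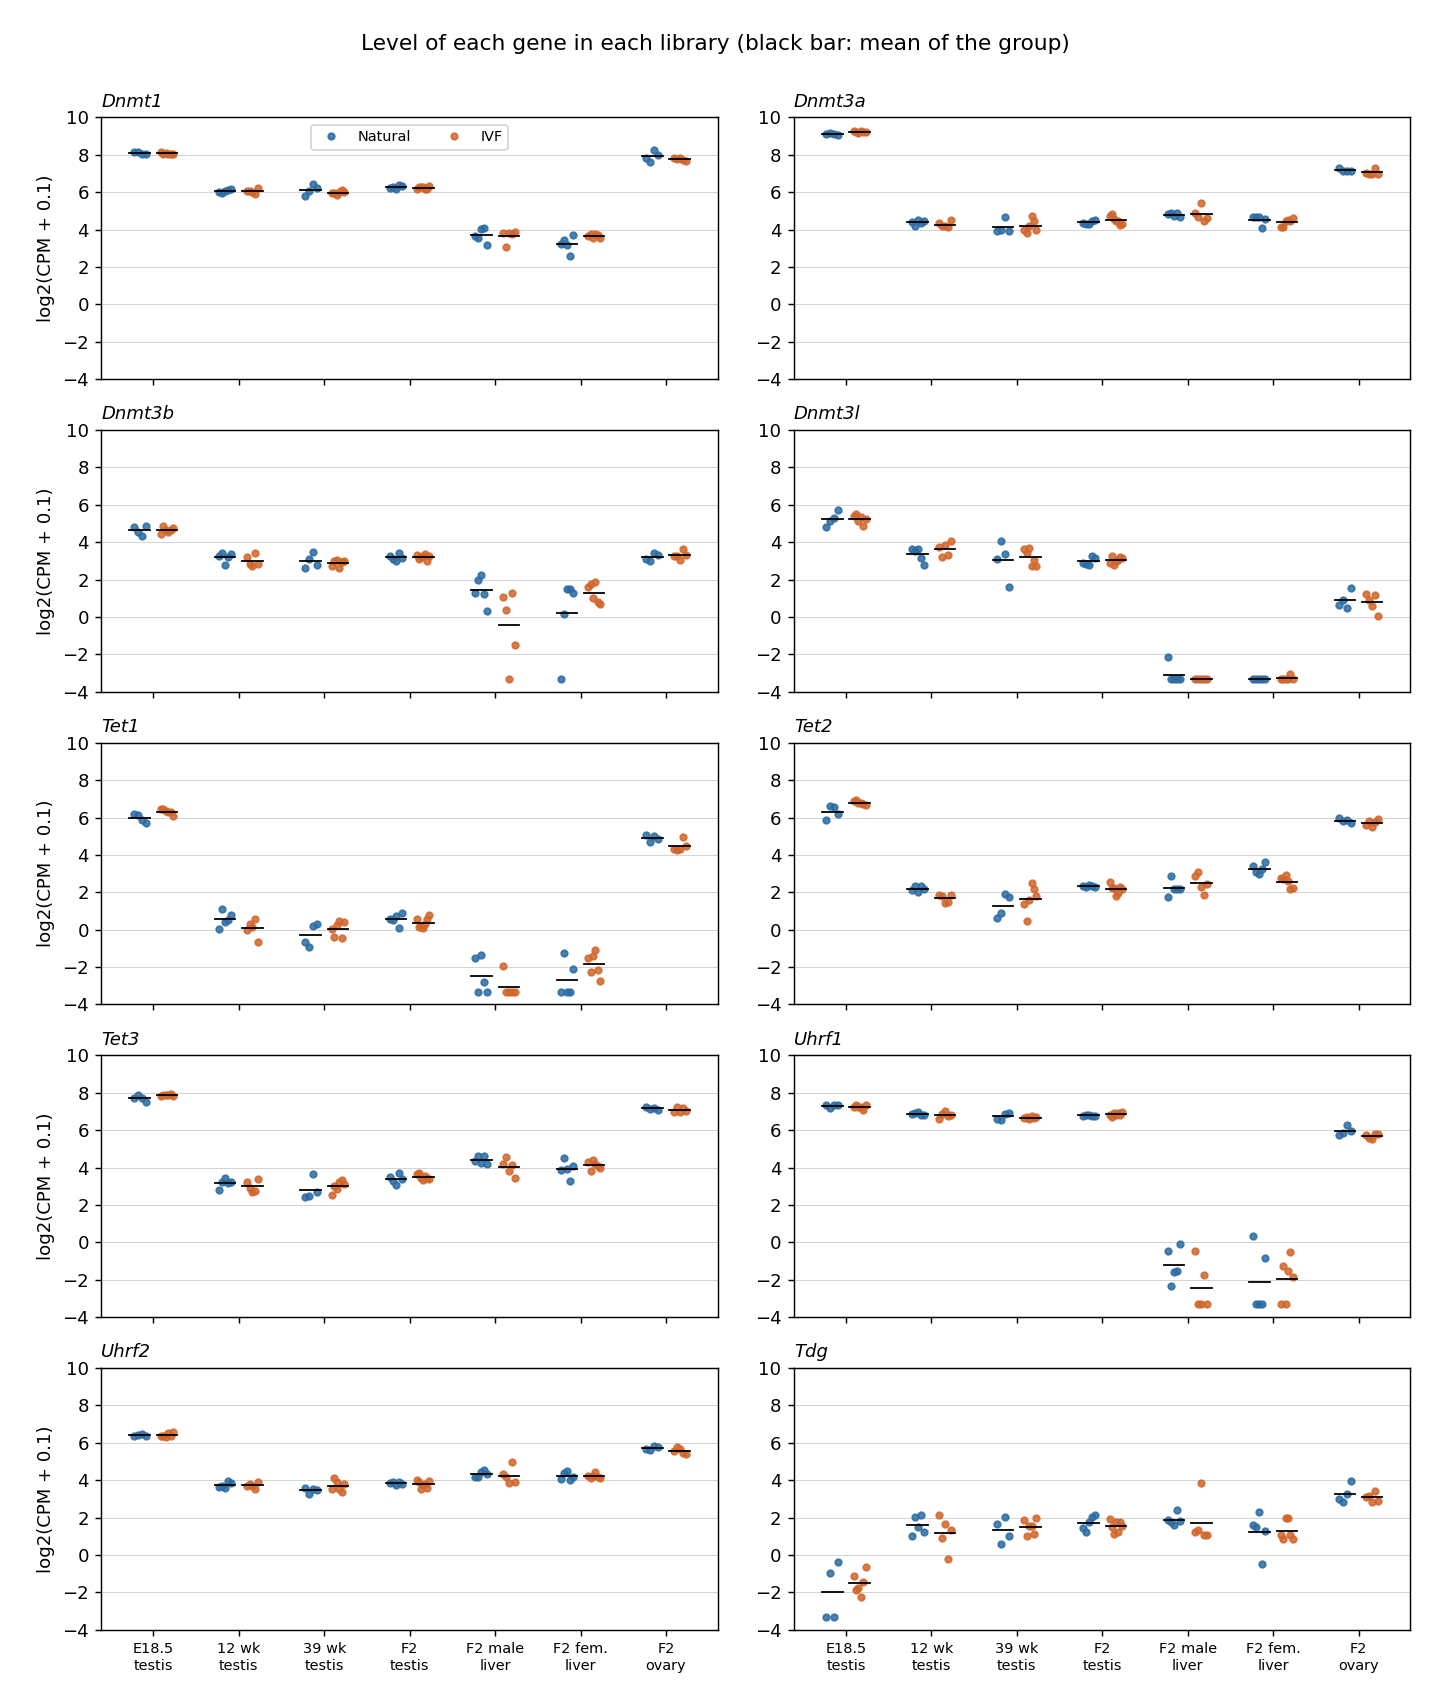
Level of each of the 10 genes in each of the 72 libraries, as log2(CPM + 0.1) on the vertical axis, by tissue and age on the horizontal axis; blue points are naturals, orange points IVF, and black bars the mean of the log2 values of a group. Dnmt3l, Tet1 and Uhrf1 sit near the floor in both livers, and the TET genes and Dnmt3a stand far higher in E18.5 testis and ovary than in adult testis.

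Between E18.5 and 12 weeks the methylation genes moved in different amounts. In naturals all 10 passed the test, and 84.3% of all genes tested did so as well, so the count itself says nothing about the set. Reported changes are fitted log2 values with their standard error; the fit joins both tables on shared symbols and scales them together, so it is not the ratio of the CPM quoted, which were scaled in separate tables. The median fitted change of all genes was 0.15 in naturals and 0.01 in IVF.

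The de novo enzyme Dnmt3a (chr12:3801559-3914443, plus strand) stood at 559, 580, 548 and 532 CPM in the fetal naturals and at 20.9, 18.51, 22.6, 20.1 and 22.0 CPM in those of 12 weeks. It fell by 3.94 ± 0.09 on the log2 scale, 15.4-fold (edgeR adjusted p = 1.93e-16). Tet1 (chr10:62804570-62887469, minus strand) stood at 73.0, 70.9, 57.6 and 52.1 CPM in the fetus and at 0.938, 2.07, 1.21, 1.31 and 1.61 CPM at 12 weeks, and fell by 4.67 ± 0.21, the steepest fall of the set. Tet3 (chr6:83362373-83457208, minus strand) stood at 214, 236, 214 and 185 CPM in the fetus and 6.96 to 10.7 CPM at 12 weeks, and fell by 3.77 ± 0.12. Tet2 (chr3:133463677-133545136, minus strand) fell by 3.38 ± 0.16. These 4 genes were thus 10.4- to 25.5-fold lower in the adult testis of naturals, and no fetal library overlapped an adult one, as for 80.6% of all genes.

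Maintenance genes fell less. Dnmt1 (chr9:20907206-20959888, minus strand) stood at 261 to 288 CPM in the fetus and 61.5 to 71.4 CPM at 12 weeks, and fell by 1.24 ± 0.08, or 2.37-fold. Uhrf2 (chr19:30030430-30093726, plus strand) fell by 1.88 ± 0.11. Uhrf1 (chr17:56303337-56323486, plus strand) stood at 144 to 165 CPM in the fetus and 112 to 124 CPM at 12 weeks. Its fitted change was 0.36 ± 0.08 upwards, but it turned to -0.40 with scaling by library size alone, so no direction is given for it. The summed level of 7 markers of dividing cells moved at the same time, from 1446 to 1636 CPM in fetal naturals to 496 to 554 CPM at 12 weeks. Its genes did not move together: 4 were called lower and 2 higher at 12 weeks in naturals. Spermatid markers appeared. The part of this change of cell make-up in the levels of the set was not tested, and in bulk tissue fewer cells of a type and less RNA per cell cannot be told apart.

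Among the partners of de novo methylation, Dnmt3l (chr10:78042287-78063622, plus strand) stood at 28.3, 35.2, 38.6 and 53.8 CPM in the fetus and at 12.2, 11.7, 12.6, 8.82 and 6.67 CPM at 12 weeks, and fell by 1.10 ± 0.20. Dnmt3b (chr2:153649411-153687730, plus strand) stood at 19.96 to 29.2 CPM in the fetus and 6.83 to 10.6 CPM at 12 weeks, and fell by 0.63 ± 0.17, or 1.55-fold. Of the 50-base stretches of its transcript, 11.5% also occur in its paralog Dnmt3c, so reads can be shared between them. Prospermatogonial markers summed to 44.2 to 85.6 CPM in fetal naturals and 6.32 to 8.88 CPM at 12 weeks. Tdg (chr10:82629814-82650799, plus strand) cannot be followed by age: it held 0 to 7 counts per fetal library and 13 to 80 at 12 weeks, 66.3% of its 50-base stretches occur in pseudogenes such as Tdg-ps, and the fetal table lists 25239 symbols where the others list 35976.

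In IVF males Dnmt3a and the 3 TET genes again fell furthest, in another order. All 10 genes passed in IVF too, where 88.4% of all genes did. Tet1 fell by 5.60 ± 0.16, Tet2 by 4.41 ± 0.11, Dnmt3a by 4.22 ± 0.08 and Tet3 by 4.13 ± 0.12, while Dnmt1 fell by 1.29 ± 0.07, Dnmt3b by 0.91 ± 0.15 and Dnmt3l by 0.86 ± 0.15. Whether IVF and naturals differed in these changes was tested separately and is given with the IVF results.

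**Figure D2:**
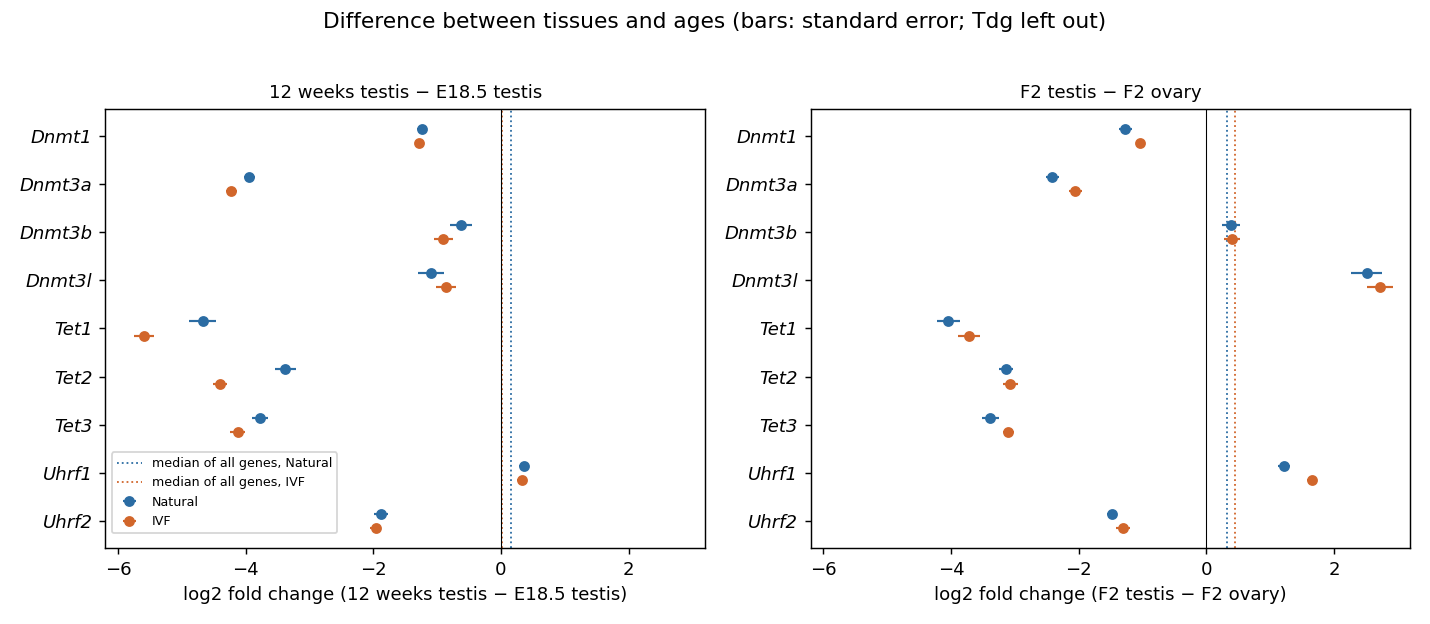
Fitted log2 fold change (horizontal axis) of 9 genes, Tdg left out, from E18.5 to 12 weeks testis (left) and of F2 testis against F2 ovary (right); blue points are naturals, orange points IVF, bars the standard error, and dotted lines the median of all genes tested. Dnmt3a and the 3 TET genes lie beyond -2 in both panels, while Dnmt3l lies below 0 on the left and above 2 on the right.

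From 12 to 39 weeks no gene of the set passed the test by edgeR. In naturals 1 gene of the set had an unadjusted p under 0.05 and the lowest adjusted p was 0.279, with DESeq2 also calling 0; in IVF no gene had an unadjusted p under 0.05, the lowest adjusted p was 0.491, and DESeq2 called 0. Of all genes, 0.00499% were called in naturals and 0.157% in IVF. The gene with the lowest p in naturals was Tet2, at 1.44, 1.74, 3.67 and 3.23 CPM at 39 weeks and 3.89 to 4.91 CPM at 12 weeks (log2 change -0.75 ± 0.29, adjusted p = 0.279). All 4 libraries of 39 weeks lay below the 5 of 12 weeks, and these low levels rest on 16 to 45 counts per library at 39 weeks. The lower pair, naturals 1 and 2, held 25776.5 and 26568.7 CPM of spermatid markers against 14943.7 and 12939.6 CPM in naturals 3 and 4, whose part was not tested. The groups did not overlap for Uhrf2 either, at 9.48 to 11.9 CPM at 39 weeks and 12.1 to 15.4 CPM at 12 weeks (-0.22 ± 0.15, adjusted p = 0.516), so for 2 of 10 genes, beside 5.61% of all genes. Dnmt1 was at 71.3 ± 13.6 CPM at 39 weeks (SD, n = 4) and 66.7 ± 4.02 CPM at 12 weeks (n = 5), and Uhrf1 at 107 ± 14.5 and 118 ± 5.74 CPM.

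In the F2 generation Uhrf1, Tet1 and Dnmt3l lay at or near 0 CPM in the livers and were present in both gonads. Uhrf1 stood at 108 to 113 CPM in F2 testis naturals and 54.3 to 77.8 CPM in ovary naturals. In the livers it gave 0 to 57 counts per library. Tet1 gave 0 to 12 counts per liver library. Dnmt3l gave 2 counts in 1 male natural and in 1 female IVF liver and 0 in all other livers, against 11 to 70 counts in the ovary libraries and 162 to 257 in F2 testis. Fitted folds against liver are not given for these 3 genes, since the liver is at or near 0. The 7 markers of dividing cells summed to 3.25 to 19.1 CPM in liver, 350 to 627 CPM in ovary and 469 to 577 CPM in F2 testis, and their part in the levels of Uhrf1 and Dnmt1 was not tested.

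Dnmt1 was present in every liver library, at 12.5, 11.7, 16.4, 16.9 and 8.90 CPM in male naturals. In F2 testis naturals it stood at 75.1, 78.4, 73.1, 82.5 and 79.6 CPM, higher by 1.52 ± 0.14 on the log2 scale (adjusted p = 9.22e-08). All 10 genes passed in this comparison, as did 92.5% of all genes, and the median change of all genes was 1.25, so that Dnmt1 exceeded it by 0.27. Uhrf1, Tet1 and Dnmt3l entered this fit through the testis libraries, being at or near 0 in liver, so their calls followed from that. Dnmt3a was lower in testis by 1.43 ± 0.08, Tet3 by 2.03 ± 0.14 and Uhrf2 by 1.49 ± 0.10. Leaving out male liver natural 1 or natural 5, the livers with spermatid markers, one at a time kept all 10 calls, with Dnmt1 at 1.56 and 1.46. In IVF 9 of 10 genes passed, against 88.2% of all genes, and Dnmt1 was higher in testis by 1.90 ± 0.17, where the median of all genes was 1.88.

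The ovary exceeded the female liver in 7 of the 10 genes and was lower in none, both in naturals (77.0% of all genes called, 44.8% higher) and in IVF (80.9% called, 45.3% higher). In naturals Uhrf1, Tet1 and Dnmt3l were among the 7. They lay at or near 0 in liver and entered the fit through the ovary libraries. Their calls followed from that, so the count is not read as a result about the set. The other genes called in naturals were Dnmt1, Tet3, Dnmt3a and Tet2. Dnmt1 stood at 231, 199, 301 and 254 CPM in ovary naturals and at 9.32, 10.9, 8.94, 5.99 and 13.1 CPM in female liver naturals, higher in ovary by 3.04 ± 0.20. Tet3 was higher by 1.58 ± 0.19, Dnmt3a by 1.04 ± 0.14 and Tet2 by 0.94 ± 0.16, where the median of all genes was 0.40. For Dnmt3b (0.74 ± 0.51), Uhrf2 (-0.11 ± 0.14) and Tdg (0.33 ± 0.45) the difference did not pass the test in naturals.

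Testis and ovary of the F2 differed in every gene of the set, in both conception groups, against 88.4% of all genes in naturals and 90.2% in IVF. The testis libraries are the same as those set against male liver, and the ovary libraries the same as those set against female liver. Dnmt3l stood at 7.23, 7.11, 6.81, 9.66 and 8.78 CPM in testis and at 1.44, 1.78, 1.29 and 2.87 CPM in ovary naturals, higher in testis by 2.51 ± 0.24, or 5.71-fold. Uhrf1 was higher in testis by 1.22 ± 0.10. The TET genes went the other way: Tet1 stood at 0.978 to 1.74 CPM in testis and 25.4 to 33.4 CPM in ovary naturals, lower in testis by 4.04 ± 0.18, or 16.4-fold. Tet3 was lower by 3.38 ± 0.13, Tet2 by 3.14 ± 0.11 and Dnmt3a by 2.41 ± 0.10. The fitted 0.38 ± 0.14 of Dnmt3b turned to -0.03 with scaling by library size alone, so no direction is given. In ovary naturals Dnmt1 led the set per kilobase, at 41.9 ± 7.27, ahead of Uhrf1 at 17.5 ± 2.95, and Uhrf1 could not be separated from Dnmt3a at 15.01 ± 0.872 or Uhrf2 at 14.9 ± 0.844 (n = 4). In liver the order opened with Uhrf2, at 5.69 ± 0.653 CPM per kilobase in male and 5.32 ± 0.767 in female naturals, followed by Dnmt3a at 2.88 ± 0.181 and 2.41 ± 0.391 (n = 5 each).

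Between the sexes the liver of naturals differed in 1 of the 7 genes tested, Tet2, while 55.4% of all genes were called. Tet2 stood at 10.5, 8.39, 7.85, 9.37 and 12.3 CPM in female livers and at 3.23, 7.15, 4.48, 4.49 and 4.49 CPM in male livers. Every female library lay above every male one, as for 40.1% of all genes whose groups did not overlap in either direction, and the difference was 1.12 ± 0.22 on the log2 scale (edgeR adjusted p = 0.00059). It was 0.70 with the trend of each library with GC content removed (adjusted p = 0.016), and without female natural 2 Tet3 was called as well, at -0.52 (adjusted p = 0.0158). With scaling by library size alone, or with all 7 groups in one fit, 5 of the genes were called. In IVF livers 0 of 7 genes were called by edgeR, 0 had an unadjusted p under 0.05 and DESeq2 called 0, against 34.3% of all genes, and Tet2 differed by 0.02 ± 0.28.

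IVF was set against naturals in each of the 7 tables. For the set 63 tests could be made, and 1 of them passed. The other 7 combinations were too low to test: Tdg at E18.5, and Dnmt3l, Tet1 and Uhrf1 in both livers. Of the 63 fitted changes, 61 were under 1.5-fold, 6 had an unadjusted p under 0.05, and in 3 the groups did not overlap. Of all genes the groups did not overlap in 6.28% at E18.5, 3.14% at 12 weeks, 3.23% at 39 weeks, 1.89% in F2 testis, 27.2% in male liver, 29.2% in female liver and 3.61% in ovary. The share of all genes called differed widely between tables, at 1.17% in E18.5 testis, 0.746% at 12 weeks, 0.00996% at 39 weeks, 1.61% in F2 testis, 34.4% in F2 male liver, 49.0% in F2 female liver and 0.00% in F2 ovary. With the trend of each library with GC content removed, the calls over all genes went from 126 higher and 55 lower to 4 and 8 at E18.5, and from 1922 higher and 2202 lower to 1473 and 758 in male liver. Against the shares above the set had 0 of 9 genes called at E18.5, 0 of 10 at 12 weeks, at 39 weeks, in F2 testis and in ovary, 0 of 7 in male liver and 1 of 7 in female liver. In the tables with 0 called by edgeR, the genes with an unadjusted p under 0.05 numbered 2 at E18.5, 1 at 12 weeks, 2 in ovary and 0 in the rest, and DESeq2 called 1 gene at E18.5 and 0 in each of the others.

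**Figure D3:**
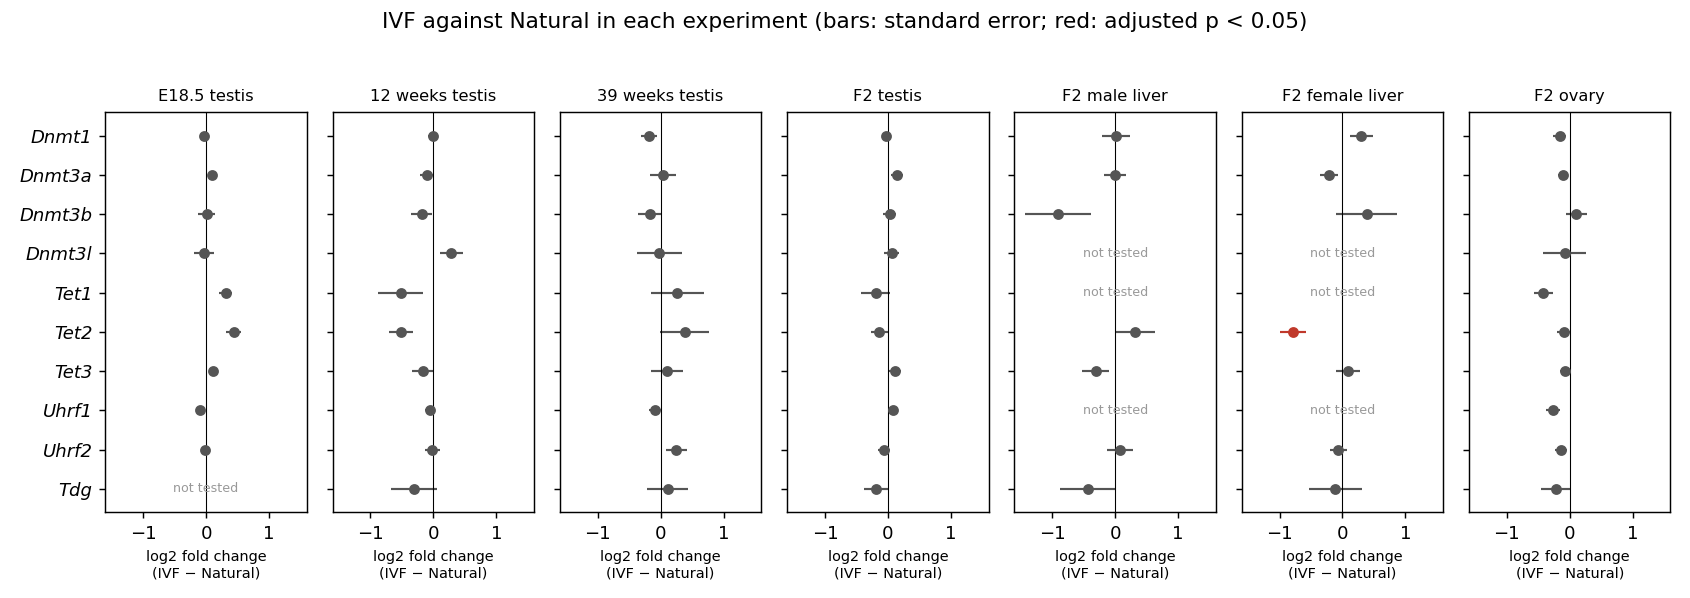
Fitted log2 fold change of IVF against naturals (horizontal axis) for each of the 10 genes in the 7 tables; bars are the standard error and red marks the 1 change that passed the test, Tet2 in F2 female liver at -0.79. Of the 63 points 61 lie within 1.5-fold of 0.

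Dnmt1, the main copier of methylation, had a fitted change of -0.04 ± 0.06 at E18.5 and -0.03 ± 0.05 in F2 testis, and its means at 12 weeks were 66.4 ± 5.33 CPM in IVF and 66.7 ± 4.02 CPM in naturals, none of which passed. At 39 weeks it was -0.19 ± 0.13, and in the livers 0.01 ± 0.22 in males and 0.30 ± 0.18 in females. Uhrf1 lay between -0.09 and 0.08 in the 4 testis tables. Dnmt3a stood at 625.3, 595, 573, 629, 586 and 593 CPM in fetal IVF testis, 5 of these 6 above every natural, with a change of 0.10 ± 0.06 (adjusted p = 0.400). Dnmt3l was at 0.29 ± 0.19 at 12 weeks and 0.06 ± 0.12 in F2 testis. The widest fitted change that did not pass was that of Dnmt3b in male liver, -0.91 ± 0.53, from 2.36, 3.85, 4.59, 2.27 and 1.16 CPM in naturals and 1.97, 1.199, 0, 2.37 and 0.251 CPM in IVF; the 0 is from the shallowest library, so it was not detectable at that depth.

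All 3 comparisons without overlap between IVF and naturals were of Tet2, and in the testis they went in opposite directions at the fetal and the adult stage. At E18.5 naturals held 58.3, 97.0, 94.0 and 73.0 CPM and IVF 117, 122, 108, 108, 107 and 103 CPM, so all 6 IVF libraries lay above every natural (6.28% of all genes tested did not overlap). The change of 0.44 ± 0.12 had an unadjusted p of 0.00194 and did not pass by edgeR (adjusted p = 0.0685), though it did by DESeq2 (adjusted p = 0.0153). With counts thinned to equal depth it was 0.44 (adjusted p = 0.0926), and of the other 8 genes none passed, with Tet1 at 0.37 (adjusted p = 0.113), Dnmt3a at 0.09, Tet3 at 0.09 and Dnmt1 at -0.03. The change of Tet2 was 0.31 without natural 1, the library with hepatocyte markers and the lowest Tet2 (adjusted p = 0.083). Without natural 2 it was 0.55 and passed (adjusted p = 0.033). In the same libraries the granulosa cell list, which holds the Sertoli genes Amh and Inha, summed to 2284 to 3329 CPM in naturals and 1409 to 2031 CPM in IVF, and Sertoli cell markers to 2951 to 4021 and 2148 to 3179 CPM. Amh is in both lists, so the sums are not separate. Of the 6 granulosa and 7 Sertoli genes tested, 0 were called between IVF and naturals by edgeR. The part of these cells in the level of Tet2 was not tested. At 12 weeks naturals held 4.19, 4.91, 3.89, 4.88 and 4.45 CPM and IVF 3.48, 3.38, 2.60, 2.66 and 3.52 CPM, so all 5 IVF libraries lay below every natural (3.14% of all genes did not overlap). This change was -0.51 ± 0.19 (unadjusted p = 0.016, adjusted p = 0.257).

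The difference between these changes passed the test on the counts as deposited, but not on counts thinned to equal depth. For Tet2 the change from E18.5 to 12 weeks was more negative in IVF than in naturals by 0.95 ± 0.19 on the log2 scale (edgeR, interaction of age and conception, adjusted p = 0.00455). With every library thinned to the shallowest, it was more negative by 0.84 ± 0.29 (adjusted p = 0.102), and 0 of 9 genes were called. On the deposited counts it was the 1 gene of 10 called, where 4.62% of all genes were. It was called in each of 20 fits that left out 1 library, at -1.23 to -0.89, and with the GC trend removed, at -0.80 (adjusted p = 0.0213). Tet1 went the same way, at -0.84 ± 0.27 (adjusted p = 0.0772), and passed in 12 of the 20 fits. In the fetus Tet1 held 73.0, 70.9, 57.6 and 52.1 CPM in naturals and 88.4, 87.1, 80.5, 77.5, 79.8 and 66.9 CPM in IVF, 5 of 6 IVF libraries above every natural (0.31 ± 0.11, adjusted p = 0.144). At 12 weeks it held 10 to 41 counts per library, with a change of -0.52 ± 0.35. Tet3 was at 0.12 ± 0.07 in the fetus and -0.16 ± 0.17 at 12 weeks. At 39 weeks Tet2 held 1.30 to 5.57 CPM in IVF and the groups overlapped, with a change of 0.38 ± 0.39. The interaction of age and conception from 12 to 39 weeks called 0 of 10 genes by edgeR, with 1 at an unadjusted p under 0.05 and 0 by DESeq2, against 0.0186% of all genes.

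**Figure D4:**
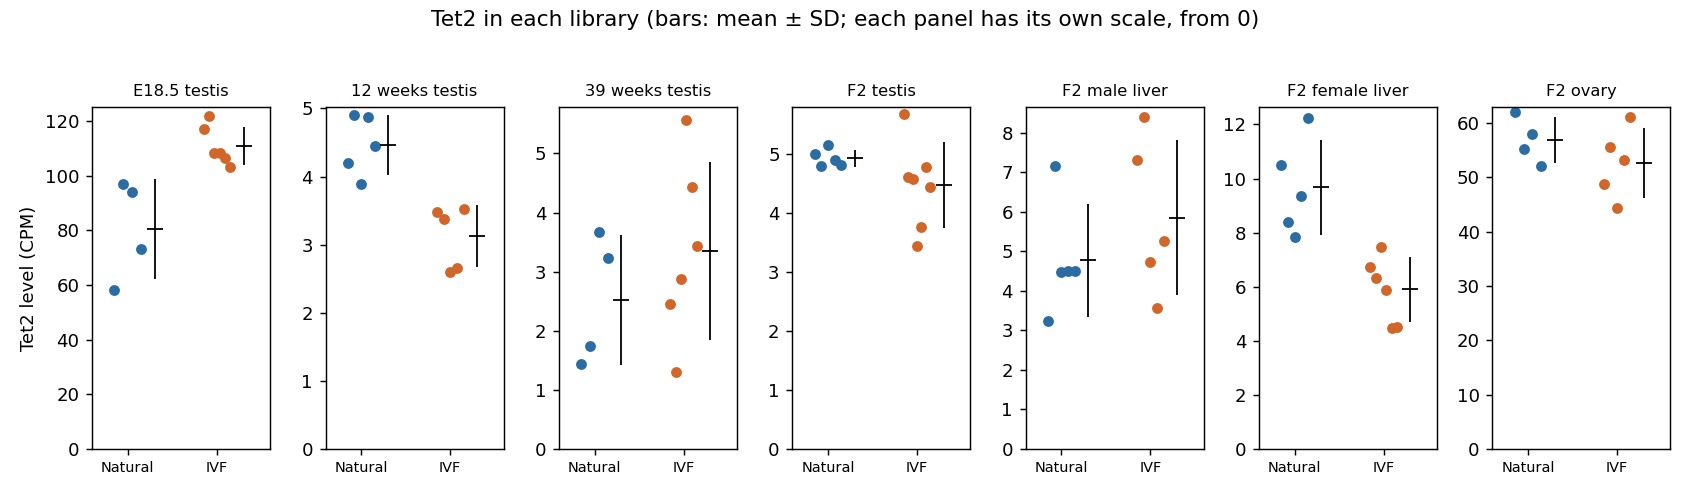
Level of Tet2 in CPM (vertical axis, from 0, with its own range in each panel) in every library of the 7 tables; blue points are naturals, orange points IVF, and crosses the mean with the SD. IVF points lie above the naturals at E18.5 (103 to 122 against 58.3 to 97.0 CPM) and below them at 12 weeks and in F2 female liver, and overlap them elsewhere.

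In the F2 livers Tet2 again differed by group. Female livers held 10.5, 8.39, 7.85, 9.37 and 12.3 CPM in naturals and 6.74, 6.34, 7.47, 5.88, 4.46 and 4.52 CPM in IVF. The mean was 9.67 ± 1.76 in naturals (SD, n = 5) and 5.90 ± 1.21 in IVF (n = 6), and all 6 IVF libraries lay below every natural, while 29.2% of all genes tested did not overlap either. Tet2 fell by 0.79 ± 0.20 on the log2 scale, or 1.72-fold (edgeR adjusted p = 0.00455). Since 49.0% of all genes were called in this table, and 23.6% were called lower, a single call among 7 genes does not exceed the background. The call held in each of 11 fits that left out 1 library, at -0.86 to -0.66. It did not hold with the GC trend of each library removed, where Tet2 was at -0.37 (adjusted p = 0.157) and the calls over all genes went from 6134 to 3242. The Tet2 transcript is 45.4% GC. In the same libraries hepatocyte markers summed to 162255 to 236791 CPM in naturals and 111159 to 121359 CPM in IVF, red blood cell markers to 449 to 723 and 162 to 370 CPM, and Kupffer cell and macrophage markers to 104 to 251 and 134 to 281 CPM; their part in the level of Tet2 was not tested. Library totals overlapped between these groups, but naturals were shallower, with a median of 7098070 counts against 17941700 in IVF. Their TMM scaling factors did not overlap, at 0.869 to 0.972 in naturals and 1.03 to 1.14 in IVF. Scaling factor and conception thus cannot be told apart here.

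Male livers held 3.23, 7.15, 4.48, 4.49 and 4.49 CPM of Tet2 in naturals and 7.32, 8.40, 4.73, 3.56 and 5.26 CPM in IVF (0.32 ± 0.31, adjusted p = 0.451), the 4.73 resting on 2 counts. The difference between the sexes in the IVF effect was -1.09 ± 0.36 (interaction of sex and conception, adjusted p = 0.0109) and was called in each of 21 fits that left out 1 library. It was called for 1 of 7 genes, against 54.0% of all genes, and was -0.41 with the GC trend removed (adjusted p = 0.364). TMM scaling factors were higher in male naturals (1.07 to 1.17) than in male IVF livers (0.777 to 1.01), the reverse of the females. The part of these factors in the difference between the sexes was not tested. F2 testis held 4.79 to 5.14 CPM in naturals and 3.43 to 5.68 CPM in IVF, 6 of 7 IVF libraries below every natural, with a change of -0.14 ± 0.13 (adjusted p = 0.714). In ovary the change was -0.10 ± 0.10.

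In the F2 ovary 9 of the 10 fitted changes were below 0 and none passed. Tet1 held 33.4, 25.4, 32.6 and 28.6 CPM in naturals and 19.9, 19.0, 20.05, 30.7 and 21.8 CPM in IVF, so 4 of the 5 IVF libraries lay below every natural and 1, IVF 4, lay among them. The change was -0.42 ± 0.15 (unadjusted p = 0.0178, adjusted p = 0.420), and -0.57 without IVF 4 (adjusted p = 0.243). Uhrf1 was at -0.27 ± 0.12 (adjusted p = 0.453) and Dnmt1 at -0.16 ± 0.11. Oocyte markers summed to 295 to 345 CPM in naturals and 195 to 297 CPM in IVF, and dividing-cell markers to 391 to 627 and 350 to 475 CPM; their part was not tested.

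The wider pathway was covered by 6 lists with 61 genes. They held readers of methylated DNA, base excision and repair, partners of maintenance, and germline partners of de novo methylation. The last 2 held the supply of methyl donors, and genes linked to the TET enzymes. IVF against naturals gave 0 of 56 genes called at E18.5, 1 of 54 at 12 weeks, 0 of 54 at 39 weeks, 1 of 55 in F2 testis and 0 of 57 in ovary, beside 1.17%, 0.746%, 0.00996%, 1.61% and 0.00% of all genes, so the single calls do not set the lists apart. In the 3 tables with 0 calls by edgeR, 12, 5 and 4 genes had an unadjusted p under 0.05, and DESeq2 called 3, 0 and 2. The call at 12 weeks was Tex15, needed for piRNA-directed methylation in male germ cells, which fell by 0.47 ± 0.08 (adjusted p = 0.0111). The call in F2 testis was Zfp57, a zinc finger protein that keeps imprints methylated, which fell by 0.38 ± 0.08 (adjusted p = 0.0116). Both held with the GC trend removed and by DESeq2.

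In the livers many of these genes were called, as were many of all genes: 19 of 47 in males (40.4%) and 28 of 48 in females (58.3%), beside 34.4% and 49.0% of all genes. In females 7 of the 12 repair genes tested rose and 1 fell, and 8 of the 15 methyl donor genes rose and 1 fell, where 25.4% of all genes rose and 23.6% fell. With the GC trend removed, 4 repair genes and 4 methyl donor genes were called higher and 0 lower, beside 11.7% of all genes higher and 14.2% lower. In males 1 of 12 repair genes rose and 5 fell, and 5 of 14 methyl donor genes fell and 0 rose, where 16.1% of all genes rose and 18.4% fell. With the GC trend removed, 2 repair genes were called higher and 2 lower, and 0 methyl donor genes higher and 2 lower. The shares of all genes called in that setting were 12.3% higher and 6.33% lower. Several went in opposite directions in the sexes. The TMM scaling factors of the libraries did so too. They were 1.07 to 1.17 in male naturals and 0.777 to 1.01 in male IVF livers. In females they were 0.869 to 0.972 in naturals and 1.03 to 1.14 in IVF. Within each sex these factors cannot be told apart from conception, and their part in the changes was not tested. Mbd2, which binds methylated DNA, rose by 1.41 ± 0.23 in male IVF livers and fell by 1.30 ± 0.20 in female ones, and both calls held with the GC trend removed. Smug1, a glycosylase of base excision repair, fell by 1.26 ± 0.32 in males and rose by 1.10 ± 0.21 in females. Shmt1, which feeds one-carbon metabolism, fell by 0.80 ± 0.19 in males and rose by 0.81 ± 0.16 in females, and these calls held likewise. Mbd3 fell by 0.70 ± 0.19 in males and rose by 0.80 ± 0.14 in females, but both values changed sign with the GC trend removed, to 0.57 and -0.45. Ehmt2, Trim28 and Shmt2 also fell in males and rose in females, and none of these calls held with the GC trend removed. Of the genes linked to the TET enzymes 3 fell in female liver, Idh1 by 0.46 ± 0.13, Ogt by 0.41 ± 0.15 and Idh3a by 0.30 ± 0.11, and none held with the GC trend removed.

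From E18.5 to 12 weeks in naturals 15 of the 57 listed genes tested rose and 36 fell, together 89.5% beside 84.3% of all genes. The 84.3% counts both directions, and no share of all genes by direction is given, so the split into rises and falls is a description only. The median change of all genes was 0.15. Of the 6 genes linked to the TET enzymes 5 fell, among them Idh2 at -4.48 ± 0.11, Cxxc4 at -5.55 ± 0.41 and Ogt at -2.59 ± 0.17. This list does not separate genes that aid these enzymes from genes that restrain them. Among the readers Zbtb33 fell by 2.79 ± 0.14, while Mbd3 rose by 1.03 ± 0.09. Of the repair list 10 of 13 fell, while Polb, Lig3 and Xrcc1, which fill and seal the repaired gap, rose by 4.08 ± 0.15, 2.89 ± 0.09 and 1.38 ± 0.09. Piwil4 and Kdm1b, both tied to de novo methylation in germ cells, fell by 4.89 ± 0.32 and 3.81 ± 0.19. The interaction of age and conception called 5 of the 57 (8.77% beside 4.62% of all genes): Tex15 at -0.99 ± 0.16, Zbtb33 at -0.88 ± 0.18, Zfp445 at -0.71 ± 0.15, Ogt at -0.68 ± 0.19 and Xrcc1 at 0.43 ± 0.12. These values rest on the counts as deposited, and at E18.5 depth and conception cannot be told apart. Tet2 did not pass in this interaction with counts thinned to equal depth, and thinned values are not given for these 5 genes.

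Across the 14 groups of tissue, age and conception, the genes closest to each member in log2 level were sought among 18244 genes by Pearson's r. Groups share tissues, scaling and base composition, so r is given as a description. Dnmt3l was closest to Tex19.1 (r = 0.999), a gene of the germline, and Uhrf1 to Hoxd8 (r = 0.998) and Ccnb1, a mitotic cyclin (r = 0.998). Dnmt1 was closest to Doc2b (r = 0.998), Tet1 to Kdm3b and Amh (r = 0.997 each), Tet2 to Bmpr1a (r = 0.994), Tet3 to Arid1b (r = 0.997), Dnmt3a to Fancb (r = 0.995), Dnmt3b to Sspo (r = 0.993) and Uhrf2 to Socs6 (r = 0.997). Tdg had no gene above 0.959 (Rpp14).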

How the data were processed

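The deposited tables hold read counts per gene symbol, one table for each of 7 experiments. Per the labels, poly(A) RNA was made into stranded libraries. The submitters' processing notes name Trimmomatic 0.32, STAR 2.3.0e, featureCounts 1.5.0, DESeq2 and the mm10 genome; the strand setting used in counting is not given in the sources used here. Low counts (up to 20) were even numbers in 60.0 to 94.3% of cases depending on the library, so 1 fragment may have been counted as 2 reads and counting error is larger than the counts imply; results were also computed with halved counts.

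Groups came from the labels. Counts were tested as deposited with edgeR 4.0.16 in R 4.3.3 (TMM scaling, filterByExpr by group, robust quasi-likelihood F test), with only the groups compared in each fit, and p-values were adjusted by Benjamini-Hochberg over all genes tested. A gene was called at an adjusted p under 0.05. Comparisons across tables joined them on shared symbols, and table cannot be told apart from tissue, sex or age there. The scripts were tested on simulated data. Alternatives were DESeq2 1.42.0, its size factors, scaling by library size alone, keeping all genes or only those with 10 counts or more throughout, a 1.5-fold limit, a replicate block, removal of each library's GC trend (lowess span 0.3; at least 83.98% of tested genes had a GC value), thinned counts and leaving out each library. Summing near-identical libraries, and thinning in the interaction of age and conception, were chosen after seeing the data. The closest pair, F2 testis IVF 3 and 4, differed by 2.60 times the sampling noise of read counts. Naturals 1 and 2 were also close at 39 weeks (3.07, median of pairs 12.5) and in F2 testis (3.12, median 6.05). Counting 1 fragment as 2 reads would raise that noise, so these ratios do not settle whether such libraries are separate. All libraries were counted separately. Gene positions were those of RefSeq (GRCm38.p6) and transcript lengths those of GENCODE M21, which matched 24366 of 25239 and 26763 of 35976 symbols. Figures used matplotlib 3.10.9.

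The 10 genes and the lists were chosen with earlier results of these data known. All 10 are named; from each list and comparison, up to 3 called genes with the lowest adjusted p could be named, and for each of the 10 the 3 genes with the highest r. Library totals set the precision, and they were lowest in F2 male liver IVF 3.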

Additional observations from a re-analysis of the deposited data

Results flagged for a closer look

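In 10 of 134 groups of 4 to 7 libraries, 1 library lay apart from the rest by Dixon's criterion, where about 6.7 would be expected at 1 in 20. In F2 male liver, Dnmt1 was lowest in IVF 2 at 8.40 CPM, with the others at 13.3 to 14.8, and Tdg was highest in natural 4 at 5.25 CPM (others 2.94 to 3.55) and in IVF 3 at 14.2 CPM (others 1.98 to 2.40), the last from 6 counts. At 39 weeks natural 3 was highest for both Dnmt3a, at 25.1 CPM (others 15.1 to 15.9), and Tet3, at 12.4 CPM (others 5.32 to 6.30). In F2 female liver, Dnmt3a was lowest in natural 4 at 16.7 CPM (others 23.6 to 25.6), and Uhrf2 was highest in IVF 4 at 21.6 CPM (others 17.4 to 18.8). In F2 ovary, Dnmt3a was highest in natural 1 at 157.9 CPM (others 139 to 143) and in IVF 4 at 156.6 CPM (others 126 to 129.9), and the same IVF 4 was highest for Tet1 at 30.7 CPM (others 19.0 to 21.8); this library also had the lowest summed oocyte markers of the ovaries, 195 CPM, whose part was not tested.

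The effect of IVF on Tet2 differed between the sexes in F2 liver by -1.09 on the log2 scale, and between 12 weeks and E18.5 testis by -0.95, both by an interaction term; the latter did not pass with counts thinned to equal depth (-0.84).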

How the results depend on the processing

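Of the 10 genes, the number called for IVF against naturals at E18.5 was 0, but 1 (Tet2) with DESeq2 and 1 with no filter on low counts, and 0 to 1 when leaving out each library. With F2 livers of naturals compared between sexes it was 1, but 5 with library size alone, 5 with all 7 groups in one fit, and 1 to 2 when leaving out each library; for IVF it was 0, but 2 with all 7 groups in one fit. Requiring at least 10 counts in every library, which removes genes near 0 in liver and those low only in the shallow F2 male liver IVF 3 (6 counts of Dnmt1), left 6 of 10 calls for F2 testis against male liver in naturals, 0 of 9 in IVF, and 4 of 7 for ovary against female liver in naturals. The interaction of age and conception called 1 gene, but 2 with DESeq2, 0 with counts thinned (an alternative chosen after seeing the data; Tet2 at -0.84) and 1 to 3 when leaving out each library: Tet1 was called in 12 and Dnmt3a in 9 of those 20 fits. The interaction of sex and conception called 1 gene, but 0 with the GC trend removed. In F2 female liver 1 gene was also called with the GC trend removed, but it was Dnmt3a in place of Tet2.

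Same-numbered libraries did not pair: their deviations correlated at -0.215 to 0.170 in F2 female liver and at -0.226 to 0.301 at 39 weeks. Between IVF livers of the sexes they correlated at 0.012 to 0.237, and 4 of 5 numbers matched best with their own, a hint from the data; the block there called 0 genes, as without it. A fit with the replicate number as a block left the call of Tet2 in F2 female liver at -0.72 (adjusted p = 0.0399, 1 gene called), and the block with the GC trend removed called 0, with Tet2 at -0.32.

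Reversed values were Uhrf1 at 12 weeks against E18.5 with library size alone (-0.40 in naturals, -0.36 in IVF), Dnmt3b in F2 testis against ovary with the same scaling (-0.027 in naturals, -0.072 in IVF), Dnmt3b in F2 testis against male liver with the GC trend removed (-0.21 in naturals), and Dnmt3a there in IVF with at least 10 counts in every library (0.25). The cause was not tested. Of 668 values of called changes under other settings, 640 kept direction and call, 22 lost the call and 6 reversed; of 820 that left out 1 library, 818 kept both. F2 male liver IVF 3, with 543745 counts, limits what male liver can show.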
